A study of Rattus norvegicus with 69 samples.

Results

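The 6 genes described here, Tnp1, Tnp2, Prm1, Prm2, Prm3 and Hils1, encode the transition proteins, the protamine family and a spermatid linker histone of the rat. They were taken by symbol from an expression array of rat testis, and each was measured by 1 probe set: 1387473_at for Tnp1, 1370022_at for Tnp2, 1394007_at for Prm1, 1370039_at for Prm2, 1371282_at for Prm3 and 1378873_at for Hils1. These are 6 of 31042 probe sets on the array, and 6 of 14217 genes that the array represents. The rule used symbols only.

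The study measured total RNA from Sprague Dawley rats on 69 arrays. Of these, 49 came from seminiferous tubules dissected under transillumination into 10 stage groups, with 5 samples in each group except stages IV-V, which had 4 here, numbered 2 to 5. The groups were the single stages I, VI, VIII and XII, the joined stages II-III, IV-V, IX-XI and XIII-XIV, and stage VII split into VIIa.b and VIIc.d. Each tubule sample pooled 25 segments from each of 2 rats aged 55 to 60 days. Cells isolated by type gave 4 Sertoli cell preparations, about 85% pure, 4 of round spermatids, 4 of pachytene spermatocytes and 3 of spermatogonia together with early spermatocytes; the germ cells were separated by elutriation, with a stated purity of 85% to 95%. The spermatogonia group came from rats of 18 to 20 days, which have not yet formed spermatids, and the other cells from rats of 55 to 60 days. A further 5 samples were whole testis, for which no age was given. The 5 samples titled stages IX-XI carry a source name of stages IX-XII, which would overlap the separate stage XII group; the title, which the study design shares, was used.

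Spermatids exchange nearly all of their histones during elongation. The transition proteins Tnp1 and Tnp2, small basic nuclear proteins, take the place of histones first, and the arginine-rich protamines Prm1 and Prm2 then replace them and pack the DNA of the sperm head. Hils1 is a linker histone of the H1 family made in spermatids. Prm3 is encoded in the protamine gene cluster, but its product is acidic and unlike a protamine in composition. Transcripts of the transition proteins and protamines are made in round spermatids and are known to be stored without translation until transcription has ceased and elongation is under way, so that RNA precedes protein. A cross-section of tubule at stages I to VIII holds both round and elongated spermatids, and one at stages IX to XIV holds elongating spermatids only, together with spermatocytes, spermatogonia and Sertoli cells at every stage. In such mixed tissue, fewer cells of a type and less RNA per cell cannot be told apart.

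In the RefSeq annotation of the rat assembly GRCr8, Prm1, Prm2, Prm3, LOC120095020 and Tnp2 follow each other on chromosome 10. Hils1 lies elsewhere on chromosome 10 and Tnp1 on chromosome 9. The 130 bases before the annotated start are shown for 5 of the 6 genes, because 3 neighbours of one cluster are compared below with Tnp1 and Hils1 from other loci; RefSeq's promoter table was matched by gene ID, and Prm2 had no entry there. Each runs 5′ to 3′ in the direction of the gene, and capitals mark any match to 3 motifs searched on both strands. The first, TGACGTCA, is the full cyclic AMP response element bound by the CREB and CREM family, and the second, TGACG, is its core, which the full element contains. The third, TATAA, is a TATA box core.
Tnp1, chr9:82044279-82044408, minus strand: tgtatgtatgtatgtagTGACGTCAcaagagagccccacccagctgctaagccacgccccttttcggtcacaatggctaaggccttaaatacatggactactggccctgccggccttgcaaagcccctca
Tnp2, chr10:5386605-5386734, plus strand: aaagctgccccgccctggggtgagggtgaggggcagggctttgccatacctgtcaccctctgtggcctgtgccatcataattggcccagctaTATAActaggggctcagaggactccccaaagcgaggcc
Prm1, chr10:5378610-5378739, plus strand: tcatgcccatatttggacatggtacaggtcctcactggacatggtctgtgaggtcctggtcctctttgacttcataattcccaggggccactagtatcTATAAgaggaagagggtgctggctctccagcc
Prm3, chr10:5384264-5384393, plus strand: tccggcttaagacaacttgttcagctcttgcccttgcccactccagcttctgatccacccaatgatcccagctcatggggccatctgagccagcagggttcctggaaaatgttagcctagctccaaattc
Hils1, chr10:80410231-80410360, plus strand: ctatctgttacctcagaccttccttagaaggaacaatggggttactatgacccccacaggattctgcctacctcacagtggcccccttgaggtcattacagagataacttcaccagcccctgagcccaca
The full element TGACGTCA was present in Tnp1, with its first base 113 bases before the start, and in none of the other 4 stretches; 1.32% of 27457 rat promoters held it in the same 130 bases. The core TGACG was likewise found in Tnp1 alone, against 12.6% of promoters. TATAA was found in Tnp2, starting 38 bases before the start, and in Prm1, starting 32 bases before it, against 14.0% of promoters. Only exact matches were searched, so a site that differs in a single base was not counted, such as tgacttca in Prm1. A match describes the letters of the window and does not show that a factor binds there.

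Values are the MAS5 signals that the authors deposited, an arbitrary brightness scale on which every array has the same trimmed mean. A signal of one probe set cannot be set against that of another, so levels are compared for a gene between samples only. Differences were tested as log2(signal + 5.11), where 5.11 is the 10th percentile of all signals, with limma across all probe sets above the table median of 43.7 in at least 3 samples of the fit. A difference was called at a Benjamini-Hochberg adjusted p under 0.05 together with a change of at least 2-fold. Each sample of a group was on 1 array, and the number of arrays limits the precision.

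A few arrays stood apart in ways that touch these genes. In stages IX-XI, samples 2 and 3 had a mean of 3724 and 3779 over the strongest 2% of probe sets, against 2184 to 3029 in the other tubule arrays, and their mean correlation with the rest of their group was 0.900 and 0.895, against 0.902 to 0.947. The actin 3′ to 5′ signal ratio, a measure of RNA integrity, was 2.65 and 2.72 in them. In samples 1, 4 and 5 of IX-XI it was 1.61 to 1.81. Samples 2 and 3 of VIIc.d were also high, at 2.86 and 2.71, and all remaining tubule arrays read 1.55 to 2.26. The part of RNA integrity in the levels of these genes was not tested. Values at stages IX-XI are given with and without samples 2 and 3 of that group, which stood apart in these measures. Leaving out samples 2 and 3 of VIIc.d was a further alternative. Marker genes were read for each cell group. The summed signal of 11 Sertoli genes was 13883 to 20733 in Sertoli samples, 500.0 to 683 in round spermatids and 673 to 908 in pachytene spermatocytes. A sum over 8 pachytene genes did not separate pachytene spermatocytes (12852 to 19916) from round spermatids (14878 to 15817). The sum of 8 Leydig genes was 5831 to 7682 in Sertoli samples and 6542 to 10054 in the spermatogonia group, against 277 to 472 in pachytene spermatocytes, and that of 6 macrophage genes was 1869.7 to 2287 in round spermatids, against 285 to 426 in pachytene spermatocytes. Of 5 macrophage genes tested between these 2 groups, only 1 was called higher in round spermatids, and the median difference was 0.02 log2. That sum therefore does not speak for the list as a whole. In tubules its median ran from 333 at stage I to 3116 at IX-XI, and the cause was not tested. The 7 genes of the spermatogonia and early spermatocyte list summed to 853 to 1258 in that group, below the 1484 to 1859 of the Sertoli samples. Gene by gene the list did not follow that sum. Of 6 tested, 1 was called higher and 2 lower in Sertoli cells than in the spermatogonia group, with a median of -0.47 log2.

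All 6 genes varied along the cycle. The limma F-test over the 10 stage groups called 6 of 6, where 32.5% of all probe sets tested were called. The ranges differed widely: from the lowest to the highest stage mean, Prm2 changed 22.6-fold, Tnp2 16.3-fold, Hils1 12.5-fold, Tnp1 8.10-fold, Prm3 3.11-fold and Prm1 2.11-fold. Each mean was highest at stages IX-XI. The lowest mean came at II-III for Tnp1 and Prm3, at IV-V for Tnp2 and Prm1, at VI for Prm2 and at XIII-XIV for Hils1. Without samples 2 and 3 of stages IX-XI, 5 of 6 were still called, all but Prm1, and the highest mean of Hils1 moved to stages VIIc.d.

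**Figure D1:**
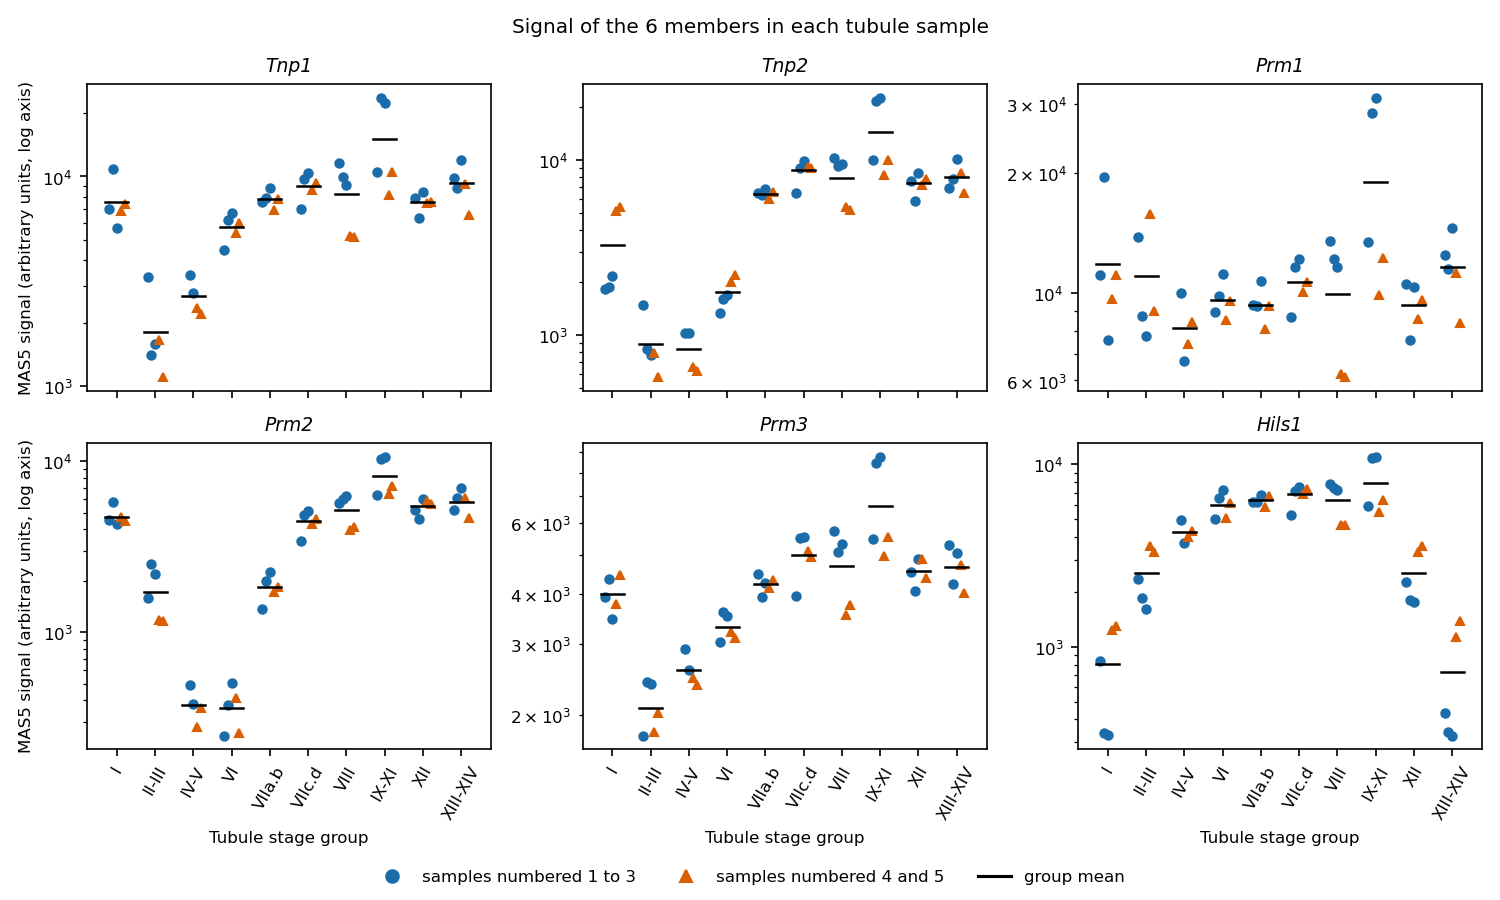
MAS5 signal (log axis, a separate scale for each gene) of the 6 genes in each tubule sample by stage group; circles are samples numbered 1 to 3, triangles samples numbered 4 and 5, and bars group means. Samples 2 and 3 of stages IX-XI stand highest for every gene, and Hils1 alone is low at XIII-XIV.

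Tnp1 fell to its trough early in the cycle and climbed back by the middle of it. Its signals at stage I were 7023, 10908, 5667, 6862 and 7388 in samples 1 to 5, and at stages II-III they were 3299, 1408, 1588, 1647 and 1107. The groups did not overlap, and the fall of 2.13 ± 0.23 (SE) on the log2 scale had a limma adjusted p of 5.40e-10. At stages IV-V the 4 samples read 3366, 2777, 2354 and 2210.4, a difference from II-III of 0.65 ± 0.25 (SE) log2 that was not called (limma adjusted p = 0.0954). At stage VI they read 4467, 6203, 6697, 5343 and 6013, all above IV-V, and this rise of 2.15-fold was called (limma adjusted p = 0.00481). From there to stage VIII no step was called, with means of 7804 ± 664 (SD, n = 5) at VIIa.b, 8979 ± 1292 (SD, n = 5) at VIIc.d and 8211 ± 2906 (SD, n = 5) at VIII. The samples of stages IX-XI read 10474, 23591, 22351, 8201 and 10492, so that samples 2 and 3 stood far above the other 3, which overlapped stages VIIc.d and VIII. The mean was 15021 ± 7329 (SD, n = 5) with all 5 samples and 9722 without those 2. At stage XII the mean was 7548 ± 798 (SD, n = 5) and at XIII-XIV 9285 ± 1942 (SD, n = 5).

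Tnp2 had a deeper and longer trough than Tnp1. It had already fallen at stage I, where its signals were 1822, 1879, 2185, 5089 and 5415 after 6908, 7838, 10166, 8418 and 6504 at stages XIII-XIV. These groups did not overlap, and the step down of 2.71-fold was called (limma adjusted p = 8.58e-05). At stage I samples 4 and 5 were higher than samples 1 to 3, with means of 5252 and 1962; in samples 4 and 5 alone the step from XIII-XIV came to -0.49 log2 and was under 2-fold. The signals reached 1480.5, 835, 767, 787 and 577 at stages II-III and 1021, 1027, 658 and 620.1 at IV-V, and these 2 groups overlapped. The rise then came in a pair of steps. At stage VI the samples read 1340.2, 1611, 1689, 1998 and 2201, 2.15-fold above IV-V (limma adjusted p = 0.0142), and at VIIa.b 6479, 6318, 6792, 5978 and 6596, 3.68-fold above VI (adjusted p = 2.95e-07). The first of these was lost without sample 4 or sample 5 of stages IV-V, with rises of at least 0.97 log2 against 1.10 with all samples (limma adjusted p = 0.0684 and 0.0754). At stages IX-XI the signals were 10039, 21722, 22536, 8239 and 10019, again with samples 2 and 3 far above the others, and the mean without them was 9432. Stage XII gave 7382 ± 979 (SD, n = 5).

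Prm1 had the narrowest range of stage means of the 6 genes. Its group means lay between 8145 ± 1416 (SD, n = 4) at stages IV-V and 18976 ± 9873 (SD, n = 5) at IX-XI, and outside IX-XI none exceeded 11809.7 ± 4602 (SD, n = 5), at stage I. The signals at stages IX-XI were 13461, 28367, 30939, 9889 and 12223. Samples 2 and 3 carried the maximum: the other 3 lay within the range of stage I, 7613 to 19639. The F-test over stages gave a limma adjusted p of 0.0153, and without samples 2 and 3 the range was 0.55 log2 with an adjusted p of 0.371. Leaving out only sample 2 or only sample 3 also ended the call, at 0.89 and 0.86 log2. No single step between neighbouring stages was called for Prm1. A stage I sample, number 2, stood out as well, at 19639 against 7613 to 11089 in the other 4.

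Prm2 showed the widest swing. It was high at stage I, at 4504, 5769, 4287, 4695 and 4442, and fell in consecutive steps to 1593, 2495, 2176, 1177 and 1161 at II-III and 489.6, 380.0, 280.3 and 360.4 at IV-V. None of these groups overlapped, and the falls of 2.87-fold and 4.38-fold were both called (limma adjusted p = 9.18e-09 and 1.46e-11). Stage VI stayed at 249, 374, 505, 410.4 and 258, where the difference from IV-V had a 95% interval of -0.49 to 0.30 log2. The return was as stepwise as the fall: 1368, 1981, 2246, 1720.1 and 1839 at VIIa.b, 5.15-fold up (limma adjusted p = 5.03e-14), and 3413, 4835, 5091, 4261 and 4588 at VIIc.d, a further 2.43-fold (adjusted p = 2.32e-06). Both rises separated all samples. From VIIc.d onward no step was called, with 5206 ± 1078 (SD, n = 5) at VIII, 8135 ± 2075 (SD, n = 5) at IX-XI, 5440.0 ± 564 (SD, n = 5) at XII and 5781 ± 887 (SD, n = 5) at XIII-XIV. The IX-XI samples read 6318, 10234, 10518, 6429 and 7176, with a mean of 6641 without samples 2 and 3.

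Prm3, which lies between Prm2 and Tnp2 in the cluster, had a shallower curve than either, with its lowest and highest stages those of Tnp1. Its lowest group was II-III, at 1777, 2409, 2383, 1815 and 2016, and its means then climbed through 2584 at IV-V, 3297 at VI and 4225 at VIIa.b to 5001 at VIIc.d. No single step reached the call. The step from stage I, at 3916, 4357, 3462, 3767 and 4442, to II-III came closest, at -0.94 ± 0.13 (SE) log2 (limma adjusted p = 8.10e-08): the groups did not overlap, but the change was under 2-fold. At stages IX-XI the samples read 5461, 8425, 8728, 4952 and 5535, and the mean was 6620.3 ± 1803 (SD, n = 5) with all 5 and 5316 without samples 2 and 3.

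Hils1 ran on a different schedule from the transition proteins and protamines. At stages IX-XI its signals were 5914, 10827, 10939, 5496 and 6404, at stage XII 2258, 1798, 1764, 3304 and 3589 and at XIII-XIV 431, 342, 326, 1131 and 1393. These 3 groups did not overlap, and it fell 3.10-fold and then 4.04-fold (limma adjusted p = 2.72e-04 and 1.00e-05). The other 5 genes were at 49.1% to 68.6% of their highest stage means at XII, and at 54.9% to 71.1% at XIII-XIV. Without samples 2 and 3 of IX-XI these shares were 77.6% to 85.5% at XII and 84.5% to 98.0% at XIII-XIV. Those of Hils1 were then 37.1% and 10.6%. For Hils1, stage I was about as low as XIII-XIV, at 834, 336, 329.8, 1229 and 1301. Hils1 was then the 1 gene of the 6 to rise from I to II-III, to 2342, 1862, 1617, 3579.6 and 3292, 3.52-fold up (limma adjusted p = 1.66e-05) without overlap. It passed through 4248 ± 545 (SD, n = 4) at IV-V and 6008 ± 963 (SD, n = 5) at VI to 6387 ± 398 (SD, n = 5) at VIIa.b, 6844 ± 898 (SD, n = 5) at VIIc.d and 6358 ± 1583 (SD, n = 5) at VIII, with no further step called. The mean at IX-XI without samples 2 and 3 was 5938, below that of VIIc.d.

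**Figure D2:**
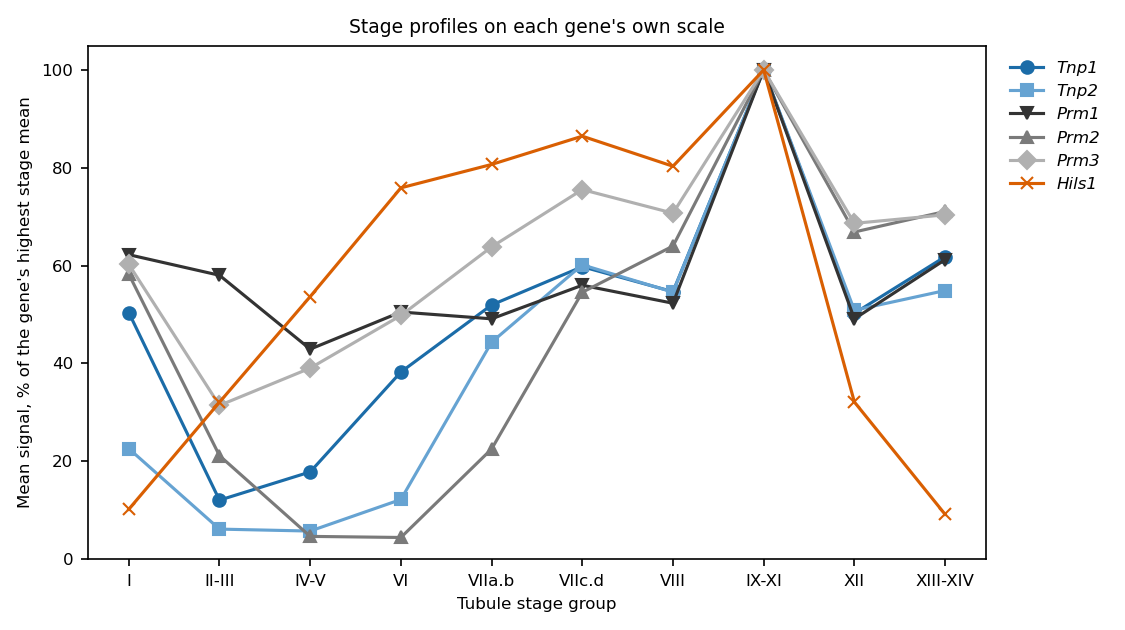
Mean signal of each gene at each stage group as a percentage of that gene's highest stage mean. At XIII-XIV Hils1 stood at 9.15% and the other genes at 54.9% to 71.1%; at stage VI Hils1 stood at 75.9%, Tnp2 at 12.2% and Prm2 at 4.42%. All maxima at IX-XI include samples 2 and 3 of that group. Without them, Hils1 stood at 10.6% at XIII-XIV and the other genes at 84.5% to 98.0%.

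Read as steps between neighbouring stage groups, 13 of 60 comparisons of a gene with a step were called, and 13 without samples 2 and 3 of IX-XI. From I to II-III, Hils1 rose, where 2.33% of all probe sets were called higher, and Tnp1, Tnp2 and Prm2 fell, where 1.31% were called lower. From II-III to IV-V, Prm2 fell (0.822% of probe sets lower). From IV-V to VI, Tnp1 and Tnp2 rose (0.283% higher). From VI to VIIa.b, Tnp2 and Prm2 rose (1.42% higher), and from VIIa.b to VIIc.d Prm2 alone did (0.616% higher). No gene was called from VIIc.d to VIII or from VIII to IX-XI; in the latter step 5 of the 6, all but Hils1, had a limma adjusted p under 0.05 with changes of 1.40-fold to 1.81-fold, and without samples 2 and 3 of IX-XI their changes were 0.21 to 0.37 log2, with adjusted p of 0.299 to 0.598 by limma. From IX-XI to XII, Hils1 fell (0.692% lower), as it did from XII to XIII-XIV (0.566% lower). From IX-XI to XII the other 5 genes also had a limma adjusted p under 0.05, with lower levels by 1.42-fold (Prm3) to 1.84-fold (Prm1). Without samples 2 and 3 of IX-XI these 5 differences were -0.36 (Tnp1) to -0.23 log2 (Prm3) and none passed (limma adjusted p = 0.414 to 0.636), while Hils1 stayed called at -1.28. Without sample 4 of IX-XI, Tnp1, Tnp2 and Prm1 were called too, at -1.05, -1.02 and -1.07 log2. From XIII-XIV to I, Tnp2 fell (0.53% lower).

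The order of the rises differed by gene. Hils1 was called higher at II-III, Tnp1 at VI, Tnp2 at VI and VIIa.b, and Prm2 at VIIa.b and VIIc.d. At stage VI, Hils1 had reached 75.9% of its highest stage mean, Prm1 50.5%, Prm3 49.8%, Tnp1 38.2%, Tnp2 12.2% and Prm2 4.42%. Without samples 2 and 3 of IX-XI these shares were 87.8% for Hils1, 80.8% for Prm1, 62.0% for Prm3, 59.1% for Tnp1, 18.7% for Tnp2 and 5.41% for Prm2, in the same order. The falls ran in another order: Hils1 by XII, Tnp2 at I, and Tnp1 and Prm2 at II-III.

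Whether the genes moved to unequal extents was tested on the log2 ratio of 2 genes within each array, which is free of the scaling between arrays. Each of the 15 pairs was compared over 5 spans, 75 tests in all, by two-sided exact permutation tests with Benjamini-Hochberg adjustment over the 75; the smallest p that 5 against 5 samples allow is 0.00794, and 4 against 4 samples allow 0.0286. In all, 49 of 75 were called. Pairs that share a gene are not independent, and the share called among pairs of other genes was not determined. From IX-XI to XIII-XIV, the called pairs were the 5 that include Hils1: its ratio to the others fell by 2.90 log2 against Tnp2 up to 3.18 against Prm2 (exact permutation test, p = 0.00794, adjusted p = 0.0259 for each). The 10 ratios among the other 5 genes changed by 0.00 to 0.28 log2 in size, and none was called. Without samples 2 and 3 of IX-XI, 1 of the 15 pairs was called, in a comparison of 3 against 5 samples whose smallest p is 0.0179; the ratio of Hils1 fell by 3.04 (Tnp2) to 3.26 log2 (Prm1) there, as much as with all samples. From XIII-XIV to II-III, 14 of 15 pairs were called, all but Tnp1 with Prm2. There the ratio of Hils1 rose by 5.22 log2 against Tnp2, and the ratio of Tnp1 to Tnp2 rose by 0.78 log2 (exact permutation test, adjusted p = 0.0259 for both). From VIIc.d to IX-XI, 6 pairs were called: the 5 with Hils1, against which the others gained 0.22 to 0.70 log2, and Prm2 with Prm3, at 0.48 log2. The count was 9 without samples 2 and 3 of IX-XI and 2 without samples 2 and 3 of VIIc.d.

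**Figure D3:**
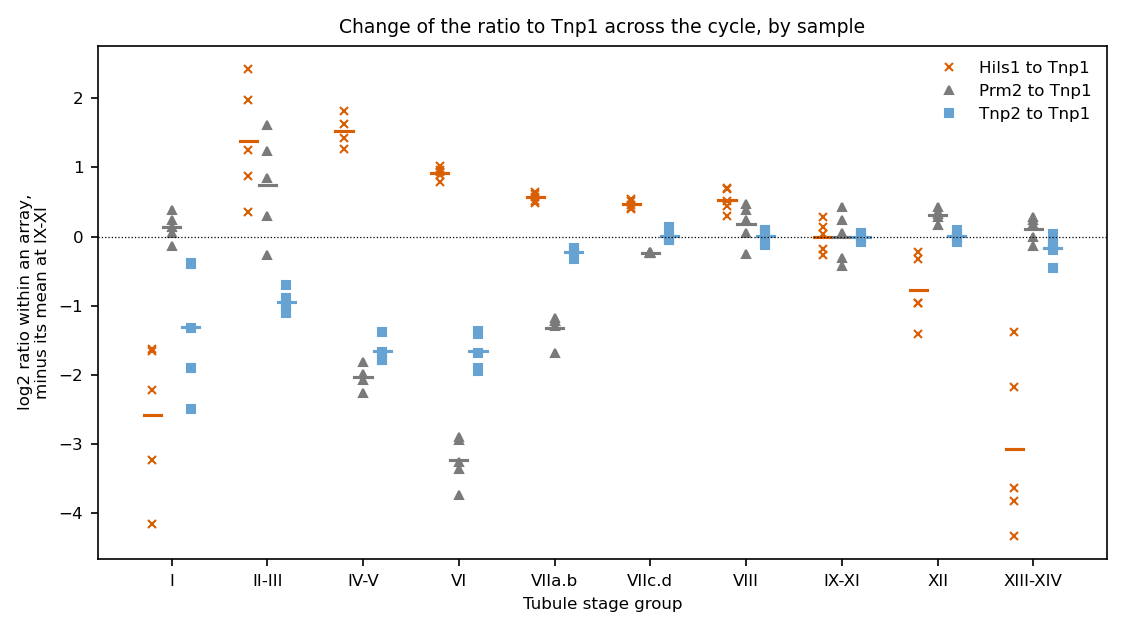
The log2 ratio of Hils1, Prm2 and Tnp2 to Tnp1 within each array, less its mean at stages IX-XI, by stage group; points are samples and bars group means. The Hils1 ratio falls from IX-XI to XIII-XIV by a mean of 3.07 and is above its IX-XI level at II-III to VIII, while the Prm2 ratio is lowest at stage VI.

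Samples 2 and 3 of stages IX-XI exceeded the other 3 for every gene, by 2.50 times for Prm1, 2.36 for Tnp1, 2.35 for Tnp2, 1.83 for Hils1, 1.61 for Prm3 and 1.56 for Prm2. The 620 strongest probe sets of the tubule arrays had a median ratio of 1.16 in the same comparison, and 80% of them lay between 0.907 and 1.47. Stage VIII had a like split, with samples 1 to 3 above samples 4 and 5 by 1.47 times for Prm3 to 2.01 times for Prm1, against a median of 1.18 for the strongest probe sets. Level also went with the numbering of the samples, as in Hils1. Samples 4 and 5 lay above samples 1 to 3 without overlap at XII (3446 against 1939.9), XIII-XIV (1262 against 366), I (1265 against 500.0) and II-III (3436 against 1940.5), the stages where this gene was falling or rising. At VIII they lay below, at 4642 against 7501. Each of the other genes also separated these samples at some stages, Tnp2 at I, IV-V, VI, VIII and IX-XI. Groups as small as these often separate by chance, and the share of all probe sets that did so was not determined. The labels do not say what the numbers stand for. In samples 1 to 3 the step of Hils1 from IX-XI to XII was -2.20 log2, and in samples 4 and 5 it was -0.78 (limma adjusted p = 2.74e-04), which is under 2-fold. In samples 1 to 3 alone the rises of Tnp1 and Tnp2 from IV-V to VI were 0.90 and 0.59 log2 and were not called (limma adjusted p = 0.232 and 0.425), and the change of Tnp2 from I to II-III was -0.99 log2.

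In the isolated cells, every gene was highest in round spermatids, and 4 of 6 were called lower in pachytene spermatocytes. Prm3 read 2788, 3298, 2552 and 2297 in round spermatids and 495, 352, 578 and 482 in pachytene spermatocytes, 5.72-fold higher in the former (limma adjusted p = 4.39e-06). Prm2 read 1917, 2427, 1247 and 1421 against 425, 249, 380.4 and 410.3, 4.67-fold higher (adjusted p = 6.99e-05 by limma). Hils1 read 3315, 3617, 3298 and 3294 against 1101, 947, 1249.8 and 759, 3.38-fold higher (limma adjusted p = 0.00317), and Tnp2 read 3979, 4662, 3836 and 3621 against 1528, 1277, 1662 and 1625, 2.64-fold higher (limma adjusted p = 0.00105). None of these 4 overlapped between the groups, but the share of all probe sets without overlap was not determined. By limma, 4 of 6 genes were called, where 8.9% of all probe sets were called higher. Tnp1, at 4095, 4843, 4091 and 3992 against 2569, 1716, 2292 and 2555, had an adjusted p of 0.0400 by limma but a change of 1.88-fold. Prm1, at 5221, 6072, 5106 and 5159 against 4565, 2706, 3826 and 5013, was not called (limma adjusted p = 0.393, 95% interval -0.37 to 1.28 log2), although the groups did not overlap. The GAPDH 3′ to 5′ ratio was 1.75 to 2.44 in round spermatids and 1.07 to 1.51 in pachytene spermatocytes, and its part in these differences was not tested.

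**Figure D4:**
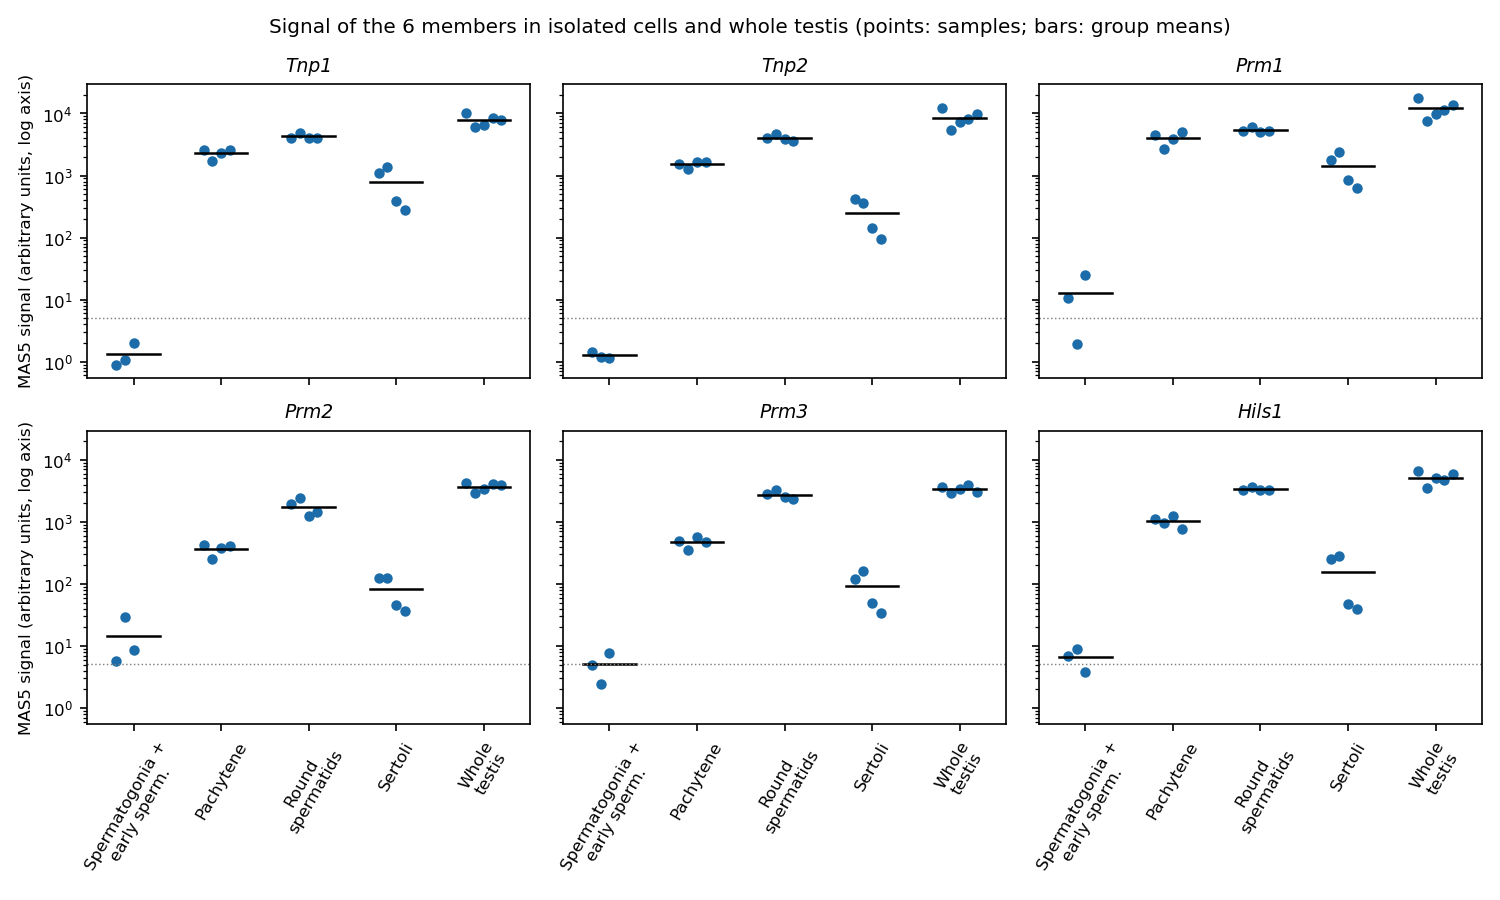
MAS5 signal (log axis, the same for all panels) of the 6 genes in the isolated cell samples and whole testis; points are samples, bars group means, and the dotted line is the 5.11 added before the log. Every gene is lowest in the spermatogonia group, and in Sertoli cells samples 1 and 2 lie above samples 3 and 4.

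The spermatogonia group, from rats without spermatids, gave the background of the assay. Tnp1 read 0.895, 1.08 and 2.02 there and Tnp2 1.45, 1.21 and 1.16, below the added constant of 5.11. Hils1 read 6.84, 9.02 and 3.83, Prm3 4.97, 2.45 and 7.68, Prm1 10.5, 1.90 and 25.3 and Prm2 5.79, 29.3 and 8.48, all under the table median of 43.7. Because these signals lie at the floor of the scale, no fold against them is given. All 6 genes were called higher than this group in pachytene spermatocytes (background 18.5% of probe sets), in Sertoli cells (12%) and in round spermatids (19.1%), by limma.

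The pachytene and Sertoli samples both carried signal of these spermatid genes. As a share of the round spermatid mean, pachytene samples held 74.7% ± 18.7 (SD, n = 4) of Prm1, 53.6% ± 9.38 of Tnp1, 37.8% ± 4.31 of Tnp2, 30.0% ± 6.23 of Hils1, 20.9% ± 4.58 of Prm2 and 17.4% ± 3.41 of Prm3. Sertoli samples held 26.3% ± 15.6 (SD, n = 4) of Prm1, 18.5% ± 12.6 of Tnp1, 6.30% ± 3.95 of Tnp2, 4.71% ± 2.74 of Prm2, 4.60% ± 3.86 of Hils1 and 3.37% ± 2.25 of Prm3. Prm1 and Tnp1 led in both. Their round spermatid means, 5389 and 4255, were also the highest of the 6 genes, the others running from 1753 (Prm2) to 4024 (Tnp2). The part of signal strength in these shares was not tested. The shares were unequal beyond the spread between samples: over the 15 pairs, the log2 ratio differed between round spermatids and pachytene spermatocytes in 13 and between round spermatids and Sertoli cells in 11 (two-sided exact permutation test, p = 0.0286, adjusted p = 0.0437 for each). The largest change was that of Prm1 against Prm3, by 2.06 log2 in pachytene spermatocytes and 2.93 in Sertoli cells. How many pairs of other genes would be called was not determined.

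Against Sertoli cells, round spermatids were higher for all 6 genes, from 4.36-fold for Prm1 to 33.2-fold for Prm3 (background 33% of probe sets), and so were pachytene spermatocytes, from 3.18-fold for Prm1 to 8.76-fold for Hils1 (background 33.6%). The Sertoli samples were not alike. Tnp1 read 1117, 1365, 391 and 275 in samples 1 to 4, Prm1 1769.9, 2432, 851 and 620.2 and Hils1 251, 285, 46.7 and 39.5. Samples 1 and 2 exceeded samples 3 and 4 for all 6 genes, by 2.86 times for Prm1, 3.01 for Prm2, 3.30 for Tnp2, 3.46 for Prm3, 3.72 for Tnp1 and 6.21 for Hils1. How many of all probe sets separated these samples was not determined. With samples 1 and 2 alone, the pachytene samples exceeded Sertoli cells by 0.87 log2 for Tnp1 and 0.92 for Prm1, both under 2-fold; with samples 3 and 4 alone all 6 stayed called.

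Other genes listed as spermatid genes gave signal in the same samples. Of 9 measured genes of round spermatids and the acrosome, such as Acrv1 and Spam1, the median share of the round spermatid mean was 21.2% in pachytene samples (range 12.9% to 192%), 2.59% in Sertoli samples (1.72% to 150.4%) and 2.55% in the spermatogonia group (0.321% to 116%). The top of each range was Tex101, which read higher in the other cells than in round spermatids. Of 13 measured genes of the elongating flagellum, such as Odf1 and Akap4, the median was 37.4% in pachytene samples (10.2% to 100.4%), 6.00% in Sertoli samples (0.948% to 27.2%) and 1.11% in the spermatogonia group (0.0649% to 19.0%), with Ldhc at the top of each. Ldhc also stands in the list of pachytene genes, so its share cannot be read as carry-over of spermatid RNA. Catsperz, at 96.9%, and Odf2, at 84.6%, were next in pachytene samples. The medians of the 6 genes were 33.9%, 5.51% and 0.189% in those 3 groups. Between Sertoli samples, 12 of the 13 flagellum genes and 8 of the 9 acrosome genes separated samples 1 and 2 from 3 and 4, with median ratios of 2.58 and 1.93, beside 3.38 for the 6 genes. Groups as small as these often separate by chance, and the share of all probe sets that did so was not determined. These counts therefore cannot set spermatid genes apart from others. The summed signal of the 13 flagellum genes was 2623 to 6375 in Sertoli samples, 15396 to 22303 in pachytene samples and 34175 to 42099 in round spermatids. The part of spermatid RNA or of spermatids in the preparations was not tested.

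**Figure D5:**
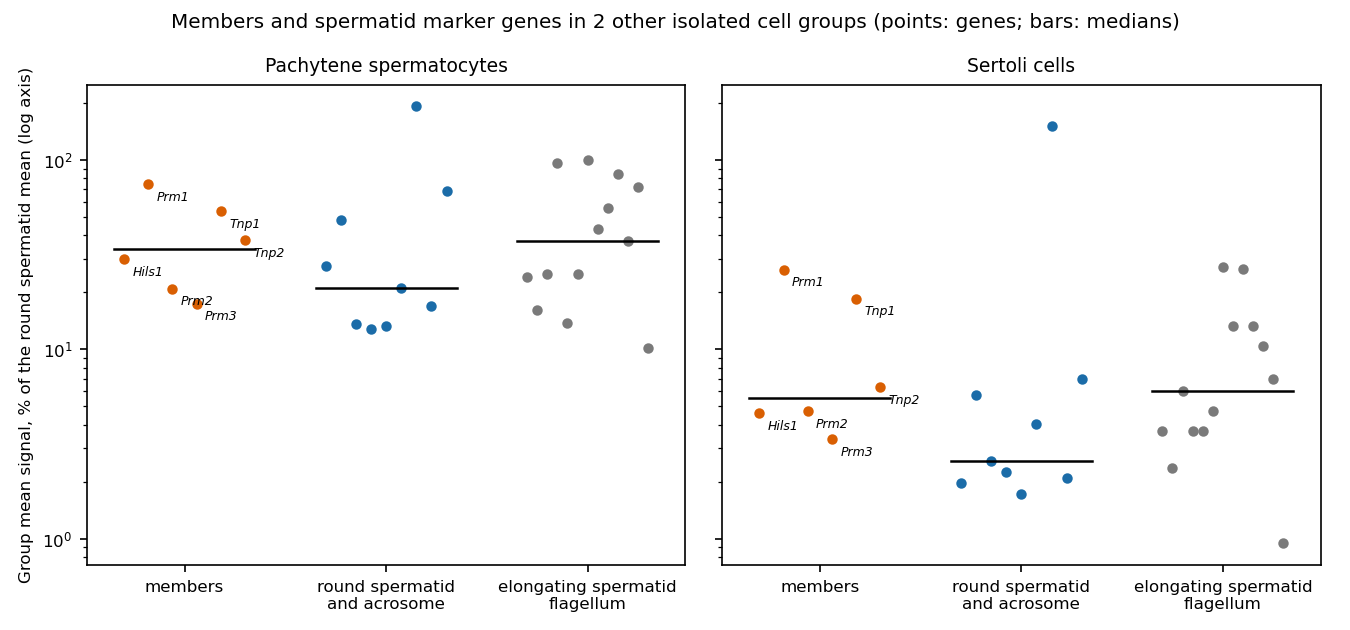
Group mean signal in pachytene spermatocytes and in Sertoli cells as a percentage of the round spermatid mean (log axis) for the 6 genes, 9 round spermatid and acrosome genes and 13 elongating spermatid flagellum genes; points are genes and bars medians. The 6 genes lie within the range of the flagellum genes in both groups, Prm1 and Tnp1 uppermost among them.

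Whole testis, which mixes all stages, was set against the mean of the 10 stage means on the log2 scale. Tnp2 read 12202, 5342, 7291, 8186 and 9689 there, 2.04-fold above that mean (limma adjusted p = 7.54e-05), the 1 gene of the 6 called, where 2.59% of probe sets were called higher. This fell under 2-fold without whole testis sample 1 or sample 5, at 0.89 and 0.97 log2. The other 5 differed from the tubule mean by -0.24 (Prm3) to 0.63 log2 (Hils1). A mean of log2 values lies below the mean of the signals themselves, most of all for a gene with a deep trough. The 2.04-fold of Tnp2 is therefore not its ratio to the mean tubule signal, against which whole testis was not tested. Prm1 read 17847, 7586, 9910.3, 11577 and 13509 in whole testis.

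Isolated round spermatids held less of every gene than tubules of stages IX-XI. The difference was 4.67-fold for Prm2, 3.30-fold for Tnp2, 3.22-fold for Tnp1, 3.16-fold for Prm1, 2.37-fold for Prm3 and 2.24-fold for Hils1, and all 6 were called lower by limma, where 15.7% of probe sets were. Without samples 2 and 3 of stages IX-XI the calls of Prm3 and Hils1 were lost, at -0.97 and -0.81 log2. With quantile normalization, which forces the strongest signals of all arrays to like values, Prm2 alone was called, at -1.72 log2, and the others stood at -0.55 (Prm3) to 0.00 log2 (Prm1).

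Over the 49 tubule samples, Tnp1, Tnp2 and Prm3 moved most closely together. Pearson's r between log2 signals was 0.94 for Tnp1 with Prm3, 0.91 for Tnp2 with Prm3 and 0.89 for Tnp1 with Tnp2, although Tnp1 lies on another chromosome than the cluster. Prm2 correlated with Tnp2 at 0.76 and with its neighbour Prm1 at 0.41. Hils1 had r of -0.24 to 0.16 with the other 5. These values describe samples that share stages, and each pair of values shares an array and its scaling. As shown above, TGACGTCA was present in the stretch searched before Tnp1 and not in those before Tnp2 or Prm3. Only exact matches were searched, and the part of this element in the correlations was not tested.

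Among 11977 other genes, those with the highest mean correlation with the 6 over the tubule samples were Dynll2 (mean r = 0.69), a dynein light chain, Spmip6 (0.68), 2610318N02Rikl (0.68), Smim23 (0.68), Rpl7 (0.67), a ribosomal protein of the large subunit, and Spata24 (0.67). All 6 had their highest stage mean at IX-XI. Each of the 6 was also read on its own. Nearest to Tnp1 and Prm3 was Dynll2 (r = 0.92 and 0.94), to Tnp2 Arl2bp (0.95), to Prm1 Gpx4 (0.97), the selenoenzyme of sperm mitochondria and nuclei, to Prm2 Ccdc179 (0.97) and to Hils1 Misfal (0.97), with Rnf151 (0.95) and Tulp2 (0.94) next. Close behind Gpx4 for Prm1 came COX2 and Ldhc, both at 0.96.

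Genes that act around the histone exchange were read from 3 lists, where 4543 of all 11983 genes tested, or 37.9%, were called over the stages and the median range was 0.91 log2. The median range was 1.69 log2 for regulators of transcription, 0.78 for RNA storage and translation, and 0.90 for histone variants and histone removal. Of 19 listed regulators of spermatid transcription 10 were tested and 7 called, and none had its highest mean at IX-XI. Crem, the activator that binds cyclic AMP response elements in spermatids, was highest at IV-V and lowest at XII, over a range of 1.77 log2. Camk4, a calmodulin-dependent kinase of spermatids, had the widest range of the list, from 185 ± 76.0 (SD, n = 5) at XIII-XIV to 3215 ± 367 (SD, n = 5) at VI (limma adjusted p = 2.70e-31). Trim66 was highest at VIIc.d, at 277, and lowest at XIII-XIV, at 28.0, under the table median of 43.7. The list went on with Rfx4 at 6.05-fold, highest at XII, and Mybl1, a regulator of meiotic genes, at 3.83-fold, highest at XIII-XIV.

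Of 27 listed genes for storage and translation of spermatid RNA, 16 were tested and 4 called: Tdrd7 at 3.96-fold, a chromatoid body component highest at VI, Pcbp1 at 3.72-fold, highest at IX-XI, Paip2b at 2.97-fold, an inhibitor of poly(A) binding protein highest at VIIa.b, and Dazap1 at 2.01-fold, highest at XII. Ybx2, which binds stored protamine RNA, had a range of 0.86 log2 and was not called. Of 51 listed histone variant and histone removal genes, 33 were tested and 15 called, and 5 of these had their highest mean at IX-XI. Cdyl rose from 101 ± 24.8 (SD, n = 5) at II-III to 2271 ± 166 (SD, n = 5) at IX-XI, and H2ap, a short H2A histone variant, from 113 ± 10.1 (SD, n = 4) at IV-V to 2166 ± 461 (SD, n = 5) at IX-XI. Mdc1, a DNA damage mediator, was highest at VIIc.d and lowest at XIII-XIV, 6.88-fold apart, and Camk4 stands in this list too.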

How the data were processed

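RNA of 69 rat testis samples was measured on Affymetrix Rat Genome 230 2.0 arrays. Per the labels and the submitters' processing notes, the authors deposited MAS5 signal intensity values, scaled so that the trimmed mean (2% of probe sets off each end) is near 100 on every array; median intensity per array was 30.9 to 58.2. Probe-level data and detection calls were not used here. Of 31099 probe sets, 57 controls were left out. Gene names came from the platform annotation, updated through RefSeq: 20826 probe sets had 1 symbol, 436 several and 9780 none listed.

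Signals were tested as log2(signal + 5.11) with limma 3.58.1 in R 4.3.3 (lmFit, then eBayes with a variance trend), keeping probe sets above 43.7 in at least 3 samples, which left 22258 in the fit of the 49 tubule samples, 20253 in that of the 15 isolated cell samples and 24046 in that of all 69. Benjamini-Hochberg adjustment ran over all probe sets of a contrast. Simulated data with known changes were used to test the scripts. Gene pairs were compared by two-sided exact permutation tests over every split of the samples, written with numpy 2.4.6. The labels do not say that every sample is a separate set of animals, so p-values measure the spread between these samples.

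The 6 genes, the gene lists and the tests were chosen with earlier results of these data known. Besides the 6 genes, the rule names the 4 with the widest stage range among those called in each list, the 6 with the highest mean correlation, and marker genes that bound a range. Crem, Ybx2, the genes nearest to a single member, marker genes given as examples and those of the closing observations lie outside this rule and were chosen after their values were seen. Alternatives were another added constant (1 or 32), no filter, quantile normalization, no variance trend, array weights, the sample number as a block, samples 2 and 3 of stages IX-XI or VIIc.d left out, and each sample left out in turn. Leaving out tubule samples numbered 1 to 3 or 4 and 5, and Sertoli samples 1 and 2 or 3 and 4, was chosen after seeing the data.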

Additional observations from a re-analysis of the deposited data

Results flagged for a closer look

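In each of 84 combinations of a gene with a group of 4 or 5 samples, the highest and the lowest sample were compared with the rest by Dixon's gap test, and 5 held a sample far from the others; chance alone gives about 5% of such groups. Sample 2 of the round spermatids was high for Tnp1, at 4843 against 3992 to 4095 in the others, for Prm1, at 6072 against 5106 to 5221 in the others, and for Hils1, at 3617 against 3294 to 3315 in the others. Sample 1 of stages VIIc.d was low for Tnp2, at 6516 against 9056 to 9909 in the others, and for Hils1, at 5302 against 6886 to 7562 in the others. The cause was not tested.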

How the results depend on the processing

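With an added constant of 32, 4657 of all probe sets were called over the stages, against 7240 with 5.11; all 6 genes were called under both. Quantile normalization left 1 of the 7 calls that set whole testis or round spermatids against tubules, and by construction it flattens the strongest probe sets: the stage range of Prm1 came to 0.06 log2 (limma adjusted p = 0.801). With array weights that range was 0.81 log2 (limma adjusted p = 0.0818), and in tubule samples 4 and 5 alone 0.94 log2. Tnp1 was called in round spermatids against pachytene spermatocytes under quantile normalization, at 1.22 log2. Leaving out each sample in turn gave 5 to 6 genes called over the stages, 6 to 6 highest at IX-XI, 7170 to 7330 probe sets called in all, 12 to 17 called steps, 34 to 34 called cell contrasts, 6 to 7 calls against tubules and 45 to 53 called pairs. No result changed direction past the threshold under any alternative run. With the sample number as a block, 6 genes, 13 steps, 34 cell contrasts and 7 contrasts against tubules were called, and 7381 probe sets in all. The labels do not say whether samples of one number belong together. The mean correlation of same-numbered deviations was 0.0220 to 0.146 by number, not above 0.1 for every pair, yet 33 of 49 tubule samples matched best with a sample of their own number, out of 5 numbers, a hint from the data that the numbers may mark something shared. Depth is a limit at low signal, since the spermatogonia samples lie at the floor; the cause of the other changes was not tested.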

Other observations

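The marker lists used above to read carry-over had stage patterns of their own over the 49 tubule samples. Of 9 measured round spermatid and acrosome genes, 8 were called over the stages by limma, beside 37.9% of all genes, and the median range was 2.07 log2, beside 0.91 for all genes. Spam1, a hyaluronidase of the sperm surface, was highest at VI, with a mean of 2713, and lowest at XII, at 21.2, under the table median of 43.7 (limma adjusted p = 4.54e-29). Acrv1 and Spaca3, proteins of the acrosome, ranged 34.3-fold and 28.8-fold over the stages, both highest at VI and lowest at XIII-XIV. Their low point at XIII-XIV was that of Hils1, whose own mean was 725 there. Acr, the acrosin protease, and Acrbp, its binding protein, were highest at IV-V and lowest at IX-XI, where the 6 genes were highest. Spata19 and Tssk2 of the same list were highest at IX-XI like the 6 genes, over ranges of 4.71-fold and 3.66-fold, both called.

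Of 13 measured flagellum genes, 5 were called, with a median range of 0.81 log2 over the list. Tekt5, a tektin of the sperm flagellum, was highest at VIIc.d, with a mean of 917, and lowest at I, at 7.65, and Cabyr was highest at VIIa.b, at 215, and lowest at XIII-XIV, at 12.4. Both low values lie near the floor of the scale, so no fold is given. Fscn3, an actin-bundling fascin, ranged 28.1-fold, highest at IX-XI and lowest at IV-V, and its correlation with Prm2 over the tubule samples was 0.97. Odf1, an outer dense fibre protein, was not called, at 1.64-fold (limma adjusted p = 0.126).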
